A study of Rattus norvegicus with 4 samples.

Results

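Catecholamine handling was examined in 9 genes of synthesis, storage, reuptake and breakdown (Th, Ddc, Dbh, Pnmt, Gch1, Slc18a1, Slc18a2, Maoa and Slc6a2), chosen by name as the rows of the count files that carry these symbols. Of these 9 genes, 8 had a row among the 25810 genes counted, and all 8 were tested among 13726 genes. No row matched Pnmt, which was not analysed here. PC12 is a line of catecholamine-secreting cells from a rat pheochromocytoma, a tumour of the adrenal medulla. The groups compared were the clone wtPC12, which the labels give as wild type PC12 cells with low REST, and the clone hrPC12, given as high REST PC12 cells and also known as PC12-27, with 2 libraries each and no treatment. Each REST level is 1 clone that arose spontaneously, so the REST level cannot be told apart from anything else in which the clones differ, and nothing says that the libraries came from separate cultures, so p values measure only the spread between these libraries. In bulk RNA, fewer cells of a type and less RNA per cell cannot be told apart either.

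Catecholamines are made from tyrosine in a chain of enzymes. Tyrosine hydroxylase (Th) makes DOPA in the rate-limiting step with the cofactor tetrahydrobiopterin, whose synthesis starts with GTP cyclohydrolase (Gch1). Aromatic amino acid decarboxylase (Ddc) turns DOPA into dopamine, dopamine beta-hydroxylase (Dbh) turns dopamine into noradrenaline inside the secretory granules, and Pnmt makes adrenaline from it. The vesicular monoamine transporters VMAT1 (Slc18a1), typical of endocrine cells, and VMAT2 (Slc18a2), typical of neurons, fill the granules against a proton gradient. The noradrenaline transporter (Slc6a2) takes released transmitter back up, and monoamine oxidase A (Maoa) breaks it down in the cytoplasm.

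The libraries held 20975027, 21999191, 27246502 and 21634943 reads on genes, in the order wtPC12 replicates 1 and 2 and hrPC12 replicates 1 and 2, the order used throughout. Replicate numbers were given here in the order of the samples, and the labels pair no libraries between the clones. Values are normalized counts, that is reads scaled by edgeR's TMM factors to the mean library, and they were not divided by gene length, so levels are compared between libraries and not between genes. Rest had 43.0, 132, 964 and 915 normalized counts (log2 FC 3.42, adj. p value 0.0115 in the quasi-likelihood F test of edgeR, corrected by Benjamini-Hochberg over all tested genes), with both hrPC12 libraries above both wtPC12 libraries as their labels say. As a check of the cell type, the 10 chromaffin markers found besides the catecholamine genes summed to 896817 and 791989 normalized counts in wtPC12 and to 14096 and 15392 in hrPC12. Chgb (chromogranin B) led these sums in wtPC12, with 687936 and 626776. Of the 9 markers tested, 6 were lower past both thresholds by edgeR, against 5.46% of all tested genes. Gata3, Hand2 and Uchl1 did not pass. Markers of other cell types were searched too. The fibroblast list (7 of 8 found) summed to 18082, 16304, 92795 and 97326, with Lum at 0 in wtPC12, and the leukocyte list (8 of 8) to 59.3, 52.5, 435 and 514, with Ptprc at 0 in wtPC12 and Itgam at 0 in hrPC12. The endothelial list (7 of 8) summed to 102, 121, 667 and 648, with Tie1 and Emcn at 0 in wtPC12 and Emcn at 0 in hrPC12. The adrenal cortex list (8 of 8) summed to 116, 94.8, 293 and 263, with Cyp11b2 and Hsd3b1 at 0 in both clones and Cyp11b1 and Mc2r at 0 in wtPC12. The Schwann cell list (7 of 8) summed to 229, 269, 301 and 310, with Sox10 and Foxd3 at 0 in both clones. In all 5 of these lists the sums of the hrPC12 libraries exceeded those of wtPC12. The fibroblast sums of wtPC12 were nearly all Thy1, with 17929 and 16186 there and 8532 and 8674 in hrPC12. Col3a1 led the fibroblast sums in hrPC12 with 83801 and 88143. Cd14 led the leukocyte sums there with 346 and 412, and Vwf the endothelial sums with 564 and 560. A negative log2 FC was found for 2 of 6 tested fibroblast genes, 1 of 4 leukocyte and 1 of 4 endothelial genes. It was also found for 1 of 3 adrenal cortex and 1 of 2 Schwann cell genes. The part of these markers in the results below was not tested.

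Of the 8 catecholamine genes, 5 were lower in hrPC12 past both thresholds (adjusted p under 0.01 and log2 FC under −2), namely Th, Gch1, Dbh, Slc18a1 and Slc6a2, against 5.46% of all tested genes. None of the 8 was higher past them, against 4.84% of all tested genes, and none had an unadjusted p under 0.05 in that direction with edgeR or with DESeq2. Maoa fell past the adjusted p threshold but not past the log2 FC threshold, so that 6 of 8 genes were lower at an adjusted p under 0.01, against 7.14% of all tested genes. Ddc and Slc18a2 did not pass the test. Over the 8 genes the log2 FC had a median of −3.59, against 0.06 over all tested genes. In 6 of the 8 genes both wtPC12 libraries lay above both hrPC12 libraries, as in 35.6% of all tested genes. The plot of counts by library and that of the fold changes against all tested genes show how far apart the 8 genes lie.

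**Figure D1:**
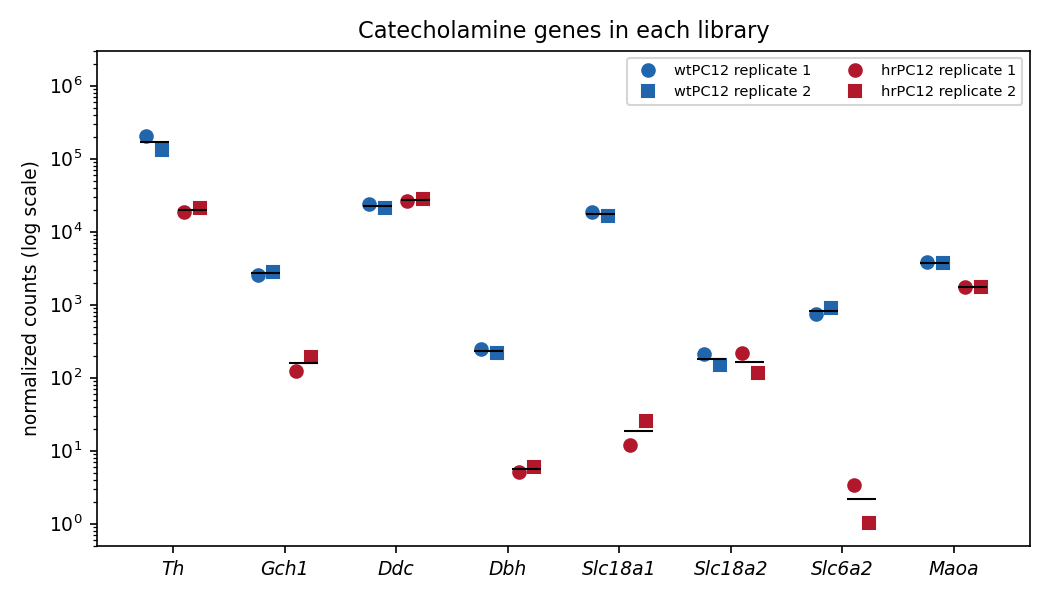
Normalized counts (log scale) of the 8 catecholamine genes in each library, with wtPC12 in blue, hrPC12 in red, circles for replicate 1, squares for replicate 2, and a black line at the mean of a clone. The clones are separated for every gene except Slc18a2, as they are for 10094 of all 13726 tested genes. Of the separated catecholamine genes, Ddc is the one with higher values in hrPC12.

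**Figure D2:**
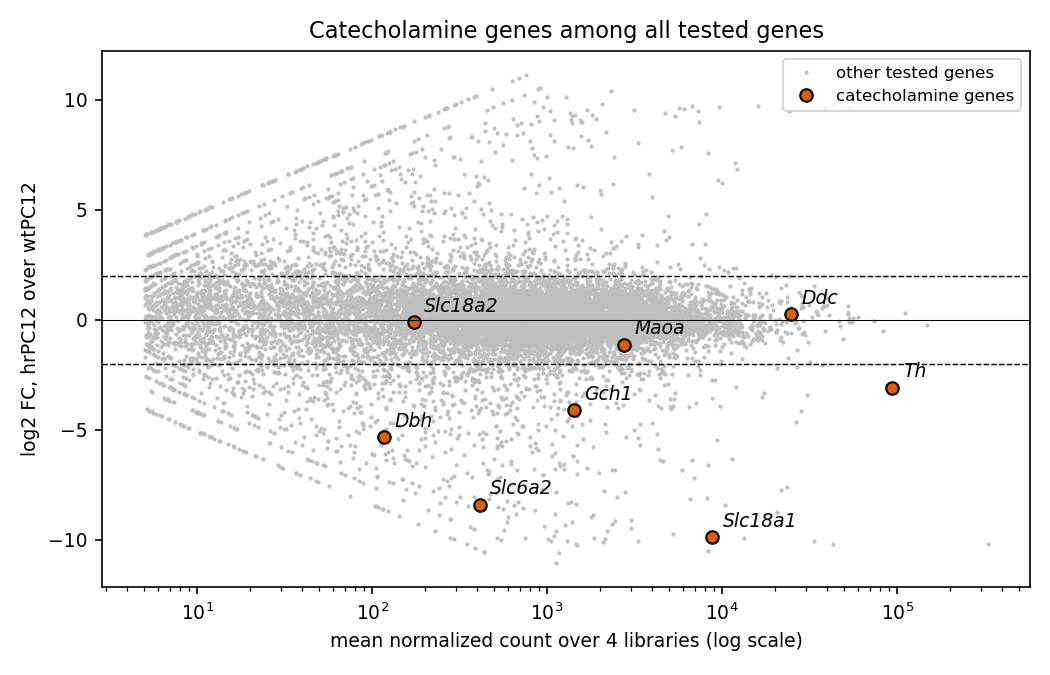
Mean normalized count over the 4 libraries (log scale) against the log2 FC of hrPC12 over wtPC12, for all 13726 tested genes (grey) and the 8 catecholamine genes (orange), with dashed lines at the log2 FC thresholds. The catecholamine genes run from Slc18a1 at −9.90 to Ddc at 0.27.

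The sequences before the start of 4 genes of the pathway with different fold changes are shown side by side. They are the 4 whose windows held TGACG, which is explained below. The windows of Ddc and Maoa, without it, were also searched and are not printed. RefSeq promoter windows (build GRCr8, which is later than the build of the counts) were matched by symbol for 6 of the 9 genes, and the 250 bases before the annotated start were searched on both strands for the cAMP response element TGACGTCA, its core TGACG, TTCAGCACC and GGACAG as the left and right parts of the RE1 site that REST binds, the Egr sites GCGTGGGCG and GCGGGGGCG, and the AP-1 sites TGATTCA and TGACTCA. The core is contained in the full response element. Capitals mark every match.

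Th, chr1:207508219-207508468, minus strand: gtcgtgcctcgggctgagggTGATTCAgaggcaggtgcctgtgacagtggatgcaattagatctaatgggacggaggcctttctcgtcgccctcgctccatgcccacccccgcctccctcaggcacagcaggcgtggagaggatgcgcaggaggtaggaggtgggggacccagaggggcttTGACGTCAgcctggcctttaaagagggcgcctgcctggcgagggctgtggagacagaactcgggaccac

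Gch1, chr15:22917413-22917662, minus strand: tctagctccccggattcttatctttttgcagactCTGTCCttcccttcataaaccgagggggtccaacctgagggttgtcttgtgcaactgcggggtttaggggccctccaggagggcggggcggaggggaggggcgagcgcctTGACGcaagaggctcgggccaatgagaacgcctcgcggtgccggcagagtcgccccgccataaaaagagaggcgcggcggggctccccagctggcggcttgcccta

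Dbh, chr3:30886078-30886327, plus strand: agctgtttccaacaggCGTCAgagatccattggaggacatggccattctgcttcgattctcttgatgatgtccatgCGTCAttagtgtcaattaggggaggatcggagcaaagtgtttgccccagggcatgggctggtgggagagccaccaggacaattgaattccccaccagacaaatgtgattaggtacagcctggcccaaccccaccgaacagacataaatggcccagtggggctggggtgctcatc

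Slc18a2, chr1:268399771-268400020, plus strand: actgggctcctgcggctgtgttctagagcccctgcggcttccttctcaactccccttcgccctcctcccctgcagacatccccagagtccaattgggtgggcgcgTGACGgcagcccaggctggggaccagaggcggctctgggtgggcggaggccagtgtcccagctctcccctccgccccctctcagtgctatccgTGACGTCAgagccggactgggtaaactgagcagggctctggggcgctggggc

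The full response element TGACGTCA stood in the windows of Th (69 to 62 bases before the start) and Slc18a2 (52 to 45 bases before it), and in 1.59% of 33360 windows of this length. These are a gene that fell in hrPC12 and a gene that did not pass the test. The core TGACG was found in the windows of Th, Gch1, Dbh and Slc18a2 and in 18.2% of all windows. The AP-1 site TGATTCA was found for Th and for 1 of the 3 windows of Ddc (2.43% of all windows), and TGACTCA for none of the 6 genes (4.05% of all windows). The left RE1 part TTCAGCACC was in none of the 6 genes' windows and in 0.306% of all windows. The right part GGACAG was in the windows of Gch1 and Maoa, in some but not all of the 3 windows of Ddc, and in 18.2% of all windows. Neither Egr site was found for the 6 genes, where 0.48% of all windows hold GCGTGGGCG and 2.46% hold GCGGGGGCG. A match here is a run of letters and not evidence of binding. Only exact matches inside these windows were sought, so a site elsewhere or with other letters would have been missed. Slc18a1 and Slc6a2, with log2 FC of −9.90 and −8.42, had no window matched by symbol and were not searched, nor was Pnmt. Whether the lowered genes have sites for REST was therefore not tested.

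The synthesis genes did not move together. Th had 202932 and 132838 normalized counts in the wtPC12 libraries and 18729 and 21001 in the hrPC12 libraries. Both hrPC12 values lay far below both wtPC12 values, although the wtPC12 libraries also differed from each other. The log2 FC of Th was −3.08 (SE 0.32, adj. p value 0.00297 by edgeR), which is 8.45-fold lower in hrPC12. Th therefore kept 11.2% and 12.5% of the mean wtPC12 level in the hrPC12 libraries, and its reads made up 0.832%, 0.586%, 0.0812% and 0.0959% of all reads on genes. Under glmTreat of edgeR, where the null hypothesis is a change within the threshold of 2, Th had an adj. p value of 0.0347 and was no longer called.

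Gch1, which supplies the cofactor of tyrosine hydroxylase, had 2557, 2837, 124 and 191 normalized counts. The hrPC12 libraries held 4.58% and 7.09% of the mean wtPC12 level. Its log2 FC was −4.10 (SE 0.30, adj. p value 0.00109 by edgeR), or 17.1-fold lower. Other genes of cofactor synthesis and recycling were examined beside it. The 6 genes listed, among them Pts, Spr, Qdpr, Pcbd1 and Gchfr, were all tested and 0 of 6 passed both thresholds in either direction, where 5.46% of all tested genes were lower and 4.84% higher, with log2 FC from −1.19 to 0.41 and a median of −0.13. An unadjusted p under 0.05 was found for Spr and Gchfr alone with edgeR, both lower. Spr (sepiapterin reductase), the one with the most reads, had 7125, 5907, 4370 and 4943 normalized counts and an adjusted p of 0.101 by edgeR's test. Gchfr, whose protein binds GTP cyclohydrolase and mediates its feedback inhibition, had 757, 568, 284 and 298 normalized counts, with a log2 FC of −1.19 (adj. p value 0.0265 by edgeR).

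Ddc, the enzyme that follows tyrosine hydroxylase, had 24196, 20841, 26281 and 27995 normalized counts. Both hrPC12 values were above both wtPC12 values by a small margin. The log2 FC was 0.27 (95% interval −0.23 to 0.77, adj. p value 0.322 by edgeR), so a rise of up to 0.77 or a fall of up to 0.23 on the log2 scale lies within the interval, and a loss like that of Th does not. Within a library, where no scaling between libraries enters, the reads on Th were 8.39 and 6.37 times those on Ddc in wtPC12 and 0.713 and 0.75 times in hrPC12. Th thus took 89.3% and 86.4% of the reads of the pair in wtPC12 and 41.6% and 42.9% in hrPC12 (Wilson 95% intervals 41.2 to 42.0% and 42.4 to 43.3% for the hrPC12 libraries, counting error only).

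Dbh, the enzyme of the granule that makes noradrenaline, had 243, 216, 5.08 and 6.07 normalized counts. In reads these were 209, 210, 6 and 6, so the hrPC12 values carry an exact Poisson 95% interval of 2.2 to 13.1 reads in each library. The log2 FC was −5.34 (SE 0.39, adj. p value 0.00109 by edgeR), or 40.5-fold lower. From the reads summed by clone and divided by the summed effective library sizes (reads on genes times TMM factor), wtPC12 was 41.4-fold above hrPC12, with a counting interval of 23.4 to 80.7. Dbh reads were few in wtPC12 too, at 0.000996% and 0.000955% of all reads on genes.

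Ascorbate and copper feed the reaction of dopamine beta-hydroxylase. Of the 6 genes listed for their supply, 4 were found and tested. Against 5.46% of all tested genes, 1 of these was lower past both thresholds. This was Slc31a1, a copper importer, with 6999, 7813, 1321 and 1397 normalized counts and a log2 FC of −2.45 (SE 0.17, adj. p value 0.001 by edgeR), a call that glmTreat did not make. The ascorbate transporters Slc23a1 and Slc23a2 and the copper chaperone Atox1 had log2 FC between −1.07 and −0.72 and adjusted p values from 0.053 to 0.313 by edgeR's test. Cyb561 and Atp7a were not analysed here.

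Of the vesicular transporters, Slc18a1 fell and Slc18a2 did not pass the test. Slc18a1 had 18628 and 16356 normalized counts in wtPC12 and 11.9 and 25.3 in hrPC12. The reads left in hrPC12 were 14 and 25, or 0.0678% and 0.145% of the mean wtPC12 level. Its log2 FC was −9.90 (SE 0.43, adj. p value 0.000328 by edgeR), and only 25 tested genes had a lower log2 FC. The ratio of summed reads, scaled by effective library size as for Dbh, was 969-fold, with a counting interval of 709 to 1363.

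Slc18a2, the other vesicular monoamine transporter, had 209, 147, 218 and 115 normalized counts. The clones overlapped, and the libraries of each clone differed from each other by more than the clones did. Its log2 FC was −0.10 (95% interval −1.18 to 0.98, adj. p value 0.87 by edgeR), and it lay between −0.63 and 0.24 when single libraries were left out. A change of up to about the log2 FC of Maoa lies within this interval, and one of the size of Slc18a1 does not. In hrPC12 the value of replicate 1 was above that of replicate 2 by 0.92 on the log2 scale, and the median of this difference over 6 neighbours on GRCr8 was 0.79. These were the nearest 3 on each side among tested genes placed by symbol with 50 or more normalized counts on average. In wtPC12 the same difference was 0.51 for Slc18a2 and −1.19 for these neighbours. Its part in the spread of Slc18a2 was not tested.

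Among the reads of Slc18a1 and Slc18a2 the share of Slc18a1 was lower in hrPC12, while Slc18a2 itself did not pass the test. Slc18a1 took 98.9% and 99.1% of the reads on the pair in wtPC12, and 5.17% and 18.0% in hrPC12 (Wilson 95% intervals 3.1 to 8.48% and 12.5 to 25.2%). The sum of both transporters was 18838, 16503, 229 and 141 normalized counts, or 95.5-fold lower in hrPC12 by the ratio of the means (17670 ± 1651 against 185 ± 62.8, SD, n = 2). The plot of read shares shows both pairs of genes in each library.

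**Figure D3:**
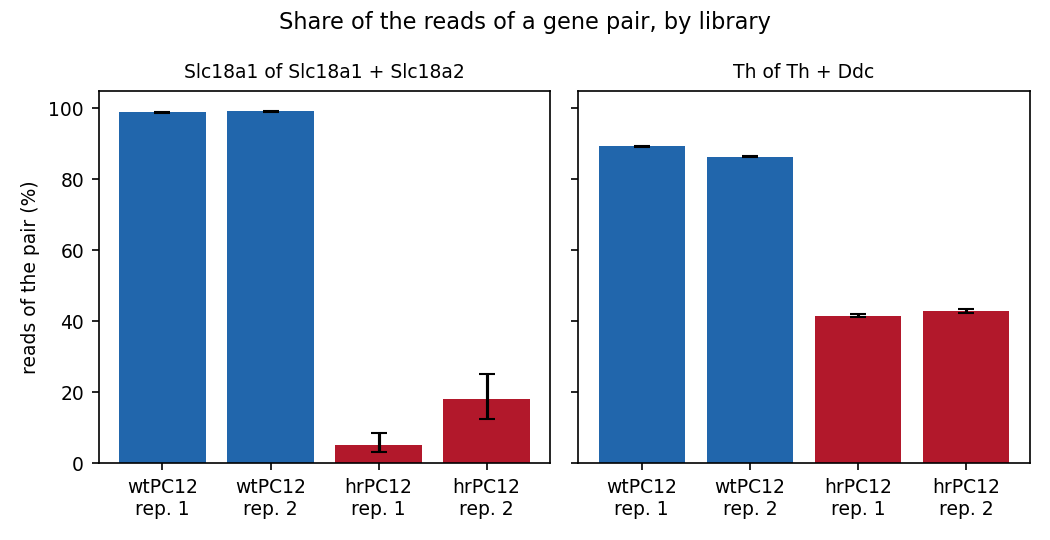
Share of the reads of a gene pair (%) taken by Slc18a1 (left, of Slc18a1 and Slc18a2) and by Th (right, of Th and Ddc) in each library, with Wilson 95% intervals for counting error. Both shares are lower in each hrPC12 library than in each wtPC12 library, with Slc18a1 at 5.17% and 18.0% and Th at 41.6% and 42.9%.

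The proton pump drives vesicular uptake. Of 18 subunit genes listed, 15 were found and tested, 2 were lower past both thresholds, against 5.46% of all tested genes, and 0 were higher (by edgeR, where Atp6v1d and Atp6v1g1, named here after their values were seen, were higher at an unadjusted p under 0.05), with a median log2 FC of −0.27. The lower ones were Atp6v1b2, the B subunit also found outside the kidney, with 59548, 47720, 2792 and 3219 normalized counts (log2 FC −4.16, SE 0.25, adj. p value 0.000686 by edgeR), and Atp6v1g2, a G subunit known from neurons, with 409, 355, 40.6 and 35.4 (log2 FC −3.32, adj. p value 0.00201 by edgeR, and 0.0175 under glmTreat, where it was not called). Atp6v1b2 also lies near Slc18a1 on GRCr8. Of the 6 neighbours of Slc18a1, taken in the same way as for Slc18a2, 3 were lower past both thresholds, against 5.46% of all tested genes. The median log2 FC of the 6 was −1.68. Around each of the other 7 catecholamine genes, 0 to 2 of the 6 neighbours were called lower.

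The reuptake transporter gene Slc6a2 had 744 and 902 normalized counts in wtPC12 and 3.39 and 1.01 in hrPC12, which correspond to 640 and 876 reads against 4 reads and 1 read. The exact Poisson 95% intervals of the hrPC12 reads were 1.09 to 10.2 and 0.0253 to 5.57. Its log2 FC was −8.42 (SE 0.50, adj. p value 0.000686 by edgeR). Scaled in the same way, the ratio of summed reads was 359-fold with a counting interval of 154 to 1108. The fitted log2 FC moved to −9.49 without hrPC12 replicate 1 and to −7.92 without hrPC12 replicate 2, since it rests on 5 reads.

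Among 6 further uptake carriers, 2 had enough reads in both clones to be tested. Slc29a4, the plasma membrane monoamine transporter, had 7425, 6644, 524 and 600 normalized counts and fell with a log2 FC of −3.65 (SE 0.19, adj. p value 0.000512 by edgeR), or 12.5-fold. The serotonin transporter gene Slc6a4 had 7, 7, 2 and 3 reads and did not pass (adj. p value 0.112 by edgeR). The dopamine transporter gene Slc6a3 had 0, 1, 4 and 0 reads, and Slc22a3 was listed at 0 in all 4 libraries. No further carrier exceeded 5 reads in a library.

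Of the breakdown genes, Maoa fell by less than the log2 FC threshold. It had 3864 and 3676 normalized counts in wtPC12 and 1717 and 1733 in hrPC12. The replicates of each clone lay close together and the clones did not overlap. Its log2 FC was −1.13 (SE 0.16, adj. p value 0.00732 by edgeR), or 2.19-fold lower, within the log2 FC threshold. When single libraries were left out, the log2 FC lay between −1.18 and −1.12 and the adj. p value of edgeR between 0.016 and 0.0343, above the threshold of 0.01 in each case. Maob, the gene of the second isoform, had 1 read over the 4 libraries.

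Of 9 further enzymes of breakdown, 8 were found and 7 were tested. Past both thresholds 1 was lower and 0 were higher, against 5.46% and 4.84% of all tested genes. Aldh1a1, an aldehyde dehydrogenase that also acts on the aldehyde of dopamine, was the one past both thresholds, with 470, 320, 7.62 and 7.08 normalized counts and a log2 FC of −5.72 (SE 0.41, adj. p value 0.00105 by edgeR). Akr1b1 (aldose reductase), the one with the most reads, had a log2 FC of 0.24 (adj. p value 0.471 by edgeR). The median over the 7 enzymes was 0.49.

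Transcription factors known to act on these genes were mixed. Of 13 listed, 12 were found and 9 tested. Of these, 3 were lower past both thresholds, against 5.46% of all tested genes, and Phox2a and Gata2 are described here. Phox2a, a homeodomain factor that activates Th and Dbh, had 18953, 17616, 393 and 436 normalized counts (log2 FC −5.46, SE 0.21, adj. p value 0.000266 by edgeR). Gata2 had 14672, 16464, 3581 and 4073 and a log2 FC of −2.02 that sat at the threshold and was −1.96 with library totals alone and −1.93 without hrPC12 replicate 1. The remaining 6 did not pass, with a median over all 9 of −0.14.

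Of 14 adrenergic and dopamine receptor genes 12 were found, and 1, Adra2b, could be tested, with 10, 25, 3 and 6 reads and an adjusted p of 0.0776 by edgeR's test. Drd2, the dopamine receptor that acts as an autoreceptor, had 45 and 41 reads in wtPC12 and 0 in both hrPC12 libraries. It could not be tested and was at least 16.9-fold lower in hrPC12, taking 3 reads per hrPC12 library as the floor. The other receptor genes had at most 11 reads in a library.

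Over the lists of cofactor, granule, pump, uptake, breakdown, regulator and receptor genes together with those of other transmitters, 47 genes were tested, 9 were lower past both thresholds, against 5.46% of all tested genes, and 0 were higher, against 4.84%, with a median log2 FC of −0.30. At an unadjusted p under 0.05, edgeR found 20 of the 47 lower and 6 higher, against 3111 and 3246 of all 13726 tested genes. DESeq2 found 18 lower and 6 higher at that level and also called 0 of them higher. The plot of related lists shows these genes beside the 8 catecholamine genes.

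**Figure D4:**
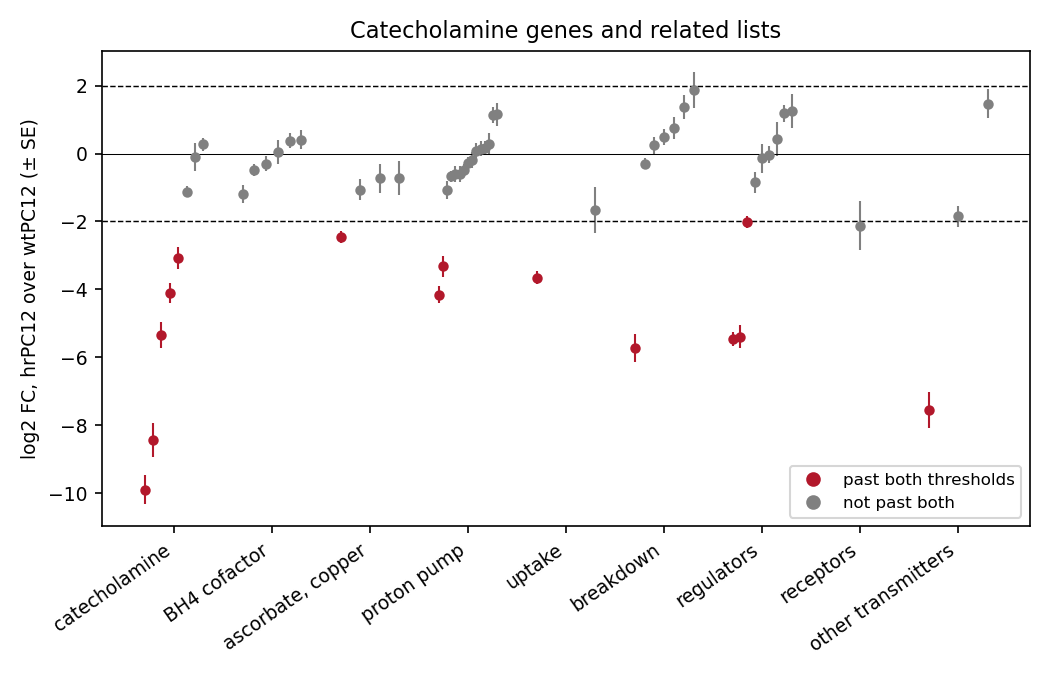
Log2 FC of hrPC12 over wtPC12 with its standard error for the tested genes of each list, in red where both thresholds were passed and in grey where not, with dashed lines at the log2 FC thresholds. In the catecholamine list 5 of 8 genes are red, and over the 8 related lists 9 of 47.

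With wtPC12 replicate 2 left out, so that the lone wtPC12 library was assumed to vary like those of hrPC12, edgeR gave 0 of the 13590 genes then tested an adj. p value under 0.01, with 0.0134 as the lowest, and 3564 and 3234 genes an unadjusted p under 0.05 in the lower and higher direction. The 5 catecholamine genes had adjusted p values from 0.0149 to 0.021 there, and 6 of the 8 kept an unadjusted p under 0.05. Without any of the other libraries the 5 calls were made again.

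Th had the most reads of the 8 genes over the 4 libraries together, although Ddc had more in each hrPC12 library. The genes most like it over the 4 libraries were sought among 10740 others with 100 or more normalized counts on average and reads in every library, by the Euclidean distance of log2 normalized counts centred on their mean. The 5 nearest were Rprml (distance 0.07), Dlx3 (0.14), Hopx (0.17), Nuak2 (0.17) and Gng3 (0.18), with log2 FC from −3.16 to −2.92. Rprml, for example, had 1068, 666, 95.7 and 112 normalized counts. Those nearest to Slc18a2 were Renbp (0.04), Prdx2 (0.12), the gene listed as D3Z8W5_RAT (0.12), Acaa1a (0.13) and A2ld1 (0.13), all with higher values in replicate 1 of either clone. With 4 libraries such likeness is a description.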

How the data were processed

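Total RNA of the clones was sequenced as TruSeq libraries on an Illumina HiSeq instrument. Per the labels, the authors aligned the reads to rn4 with TopHat2 2.0.4, and their processing notes also name HTSeq 0.5.3 and DESeq 1.9.12. They deposited raw counts of reads per gene, without normalization. Whether counting used strand is not given in the sources used here. Rows that name no gene held 58.7 to 62.1% of the reads and were left out. A deposited table of the authors' own comparison (mean counts, fold changes and p values) was not used. The genes and lists were chosen with earlier results of these data known.

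Counts were normalized with edgeR 4.0.16 (TMM), filtered as in the study (mean normalized count of at least 5, reads in both clones) and compared with glmQLFit (legacy option on) and glmQLFTest in R 4.3.3, with Benjamini-Hochberg adjustment over 13726 genes. A gene was called at an adj. p value below 0.01 together with a log2 FC beyond 2 in size. DESeq2 1.42.0 was an alternative. Standard errors are the log2 FC over the root of F, intervals use t. With 2 libraries per clone 0.333 is the smallest two-sided p of an exact permutation test for 1 gene. The fits were tested on simulated data. Named genes are the 9, Rest, and in each related list the called genes and the one with the most normalized counts, with Maob, Slc6a3, Slc22a3, Cyb561 and the nearest profiles. Gchfr, Slc6a4, Slc23a1, Slc23a2, Atox1, Drd2, Atp6v1d, Atp6v1g1, Thy1, Col3a1, Cd14 and Vwf were named after their values were seen. Some genes of these lists are not reported here. Of 82 related genes 68 were found by symbol and 3 by an older symbol in RefSeq; 11 were not. Of the tested genes, 65.2% could be placed on GRCr8 by symbol. Poisson, Wilson and read-ratio intervals cover counting error only.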

Additional observations from a re-analysis of the deposited data

How the results depend on the processing

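The alternatives were DESeq2, filterByExpr, RLE factors, no factors beyond library totals, no filter on low counts, the legacy option off, glmTreat, an adjusted p under 0.05, a prior count of 2, and each library left out in turn. No paired analysis was possible because the sample labels of the clones share fewer than 2 replicate names. The count of catecholamine genes lower in hrPC12 was 5 under every alternative on all 4 libraries except glmTreat, with 4, and it ranged from 0 to 5 with a library left out. The count higher was 0 throughout. The count of related genes lower ranged from 0 to 9 with a library left out. For all genes, glmTreat gave 674 calls (353 lower, 321 higher) in place of 1414, and leaving out a library gave 0 to 1821. All values of 0 here came from leaving out wtPC12 replicate 2. DESeq2 gave 1788, RLE factors 1771 and no filter 2104. The sign of the log2 FC held for every catecholamine gene under all 13 alternatives, except for Slc18a2, which was 0.14 without wtPC12 replicate 1 and 0.24 without hrPC12 replicate 2. With few reads in hrPC12, the log2 FC of Slc6a2 also moved with the prior count, to −7.59, and that of Dbh to −4.94. Slc18a2, at 114 to 257 reads a library, is limited by the spread between libraries.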

Other observations

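Genes of other transmitters stood beside the catecholamine genes in the counts. Of 10 listed genes for acetylcholine, serotonin, histamine and GABA, 8 were found and 3 were tested. Slc18a3, the vesicular acetylcholine transporter and a relative of the monoamine transporters, had 391 and 271 reads in wtPC12 and 2 in each hrPC12 library. Its log2 FC was −7.54 (SE 0.53, adj. p value 0.001 by edgeR), and it passed both thresholds. With so few reads in hrPC12, the log2 FC of Slc18a3 moved to −6.58 with a prior count of 2. Tph1, the tryptophan hydroxylase of peripheral serotonin synthesis and an enzyme related to tyrosine hydroxylase, had 176, 172, 44.9 and 51.6 normalized counts (log2 FC −1.85, adj. p value 0.0125 by edgeR) and did not pass. Hdc, the histidine decarboxylase, had 12.8, 12.4, 34.7 and 35.4 (log2 FC 1.47, adj. p value 0.0498 by edgeR) and did not pass either. The GABA enzymes Gad1 and Gad2 were listed at 0 reads in all 4 libraries. Tph1 and Hdc were named after their values were seen.

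The 8 catecholamine genes together took 1.04% and 0.785% of the reads on genes in wtPC12 and 0.204% and 0.233% in hrPC12. Th made up 80.1% and 74.7% of these reads in wtPC12 and 39.8% and 41.1% in hrPC12.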
